A study of Homo sapiens with 30 samples.

Results

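The 10 genes described here encode heat shock proteins of the cytosol and mitochondria. They were chosen by symbol from the gene table of the series, and all 10 were found among its 20114 genes and passed the filter on low values that 12743 genes passed. The RNA was polyadenylated RNA of SUM190, a line long established from inflammatory breast cancer, and of 2 derivatives, a doxorubicin-resistant and a paclitaxel-resistant one. There were 15 groups with 2 libraries each, 30 in all. Treatment began 24 h after the cells were seeded and lasted 72 h, and every line had a DMSO group. In parental cells the treatments were paclitaxel (2.5 nM and 10 nM), doxorubicin (65 nM and 1 µM), ruxolitinib (15 µM), and ruxolitinib combined with paclitaxel (2.5 nM). The doxorubicin-resistant line was treated with doxorubicin, 350 nM in one group and 1 µM in the other. The paclitaxel-resistant line had paclitaxel groups (6.5 nM and 10 nM), a ruxolitinib group (15 µM) and a group with ruxolitinib plus paclitaxel (6.5 nM). Ruxolitinib inhibits the kinases JAK1 and JAK2, doxorubicin poisons topoisomerase II and intercalates in DNA, and paclitaxel stabilises microtubules. The labels give ruxolitinib as 15 nM in both combinations, unlike the 15 µM of the single agent, and do not say how many clones each resistant line holds or whether the 2 libraries of a group come from separate cultures. If they do not, p-values measure only a technical spread.

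Chaperones bind proteins that are not yet folded or have lost their fold. In the cytosol, HSP70 proteins (the stress-inducible HSPA1A and HSPA1B and the constitutive HSPA8) take clients from J-domain proteins such as DNAJB1, which stimulate their ATPase, and release them when HSPH1 (HSP110) or BAG3 exchanges the nucleotide. HSP90AA1, the inducible HSP90, matures kinases and receptors, and HSPB1 (HSP27) is a small heat shock protein that holds unfolded clients without ATP. In mitochondria HSPD1 (HSP60) folds imported proteins in a chamber, and DNAJC15 (also called MCJ) is a J-domain protein of the inner membrane that works at the import motor and restrains respiratory complex I. The transcription factor HSF1 drives many of the cytosolic genes through heat shock elements, which are inverted repeats of nGAAn.

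The promoters of 3 genes are shown because they hold the 3-unit heat shock element, TTCNNGAANNTTC or on the other strand GAANNTTCNNGAA, in the 250 bases before a RefSeq transcript start. That motif was in 154 of 34788 RefSeq windows of this length (0.443%). The shorter TTCNNGAA or GAANNTTC, which lies within every longer match, was in 4038 windows (11.6%). It was in 8 of the 10 genes, where a gene counts if any of its annotated starts matched, so the 2 counts have unlike units. DNAJB1, HSP90AA1 and HSPD1 have more than 1 start, and in each of them 1 window matched. Sequences are from RefSeq on GRCh38.p14, a newer build than that of the reads, and run 5′ to 3′ on the gene's strand, here the minus strand for each, with the 3-unit element in capitals. The stretches are chr11:123062139-123062386 for HSPA8, chr14:102087080-102087172 for HSP90AA1 and chr2:197500028-197500090 for HSPD1.
HSPA8: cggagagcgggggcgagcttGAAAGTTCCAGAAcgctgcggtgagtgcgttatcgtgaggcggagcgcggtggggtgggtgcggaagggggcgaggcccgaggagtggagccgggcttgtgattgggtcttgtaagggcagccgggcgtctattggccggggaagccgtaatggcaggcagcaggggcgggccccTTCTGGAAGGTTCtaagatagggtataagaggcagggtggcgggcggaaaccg
HSP90AA1: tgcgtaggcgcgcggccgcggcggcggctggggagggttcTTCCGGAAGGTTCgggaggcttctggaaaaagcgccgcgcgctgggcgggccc
HSPD1: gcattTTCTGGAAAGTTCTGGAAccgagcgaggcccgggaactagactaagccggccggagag
HSPA8 has 2 separate elements. HSPD1 has 2 that overlap in a single run, and HSP90AA1 has 1. HSP90AA1 and HSPD1 each have another annotated start whose window lacks the motif. These matches describe the letters only, and no binding was measured.

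Levels are in CPM, the reads of a gene relative to library size, scaled by the TMM method, which balances libraries of unequal composition. In parental DMSO cells the level per kilobase of the longest annotated protein-coding transcript was highest for HSP90AA1 at 1747 CPM per kb, followed by HSPA8 at 842, HSPB1 at 831 and HSPD1 at 318. DNAJB1 stood at 170 CPM per kb and HSPH1 at 53.1. BAG3 at 31.2, HSPA1A at 27.6 and HSPA1B at 18.6 were lower, and DNAJC15 was lowest at 0.692. The group means of DNAJC15 spanned 4.16 on the log2 scale, wider than in 99.6% of tested genes, while those of HSP90AA1 spanned 0.63, wider than in 16.7%. HSPA1A and HSPA1B encode nearly the same protein from near-identical genes, so reads could be split between them, and their values are uncertain one by one. Their CPM ratio lay between 1.20 and 1.62 in all 30 libraries. HSPA8, HSPD1 and HSP90AA1 have processed pseudogenes, and how reads shared with those were counted is not given in the sources used here.

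**Figure D1:**
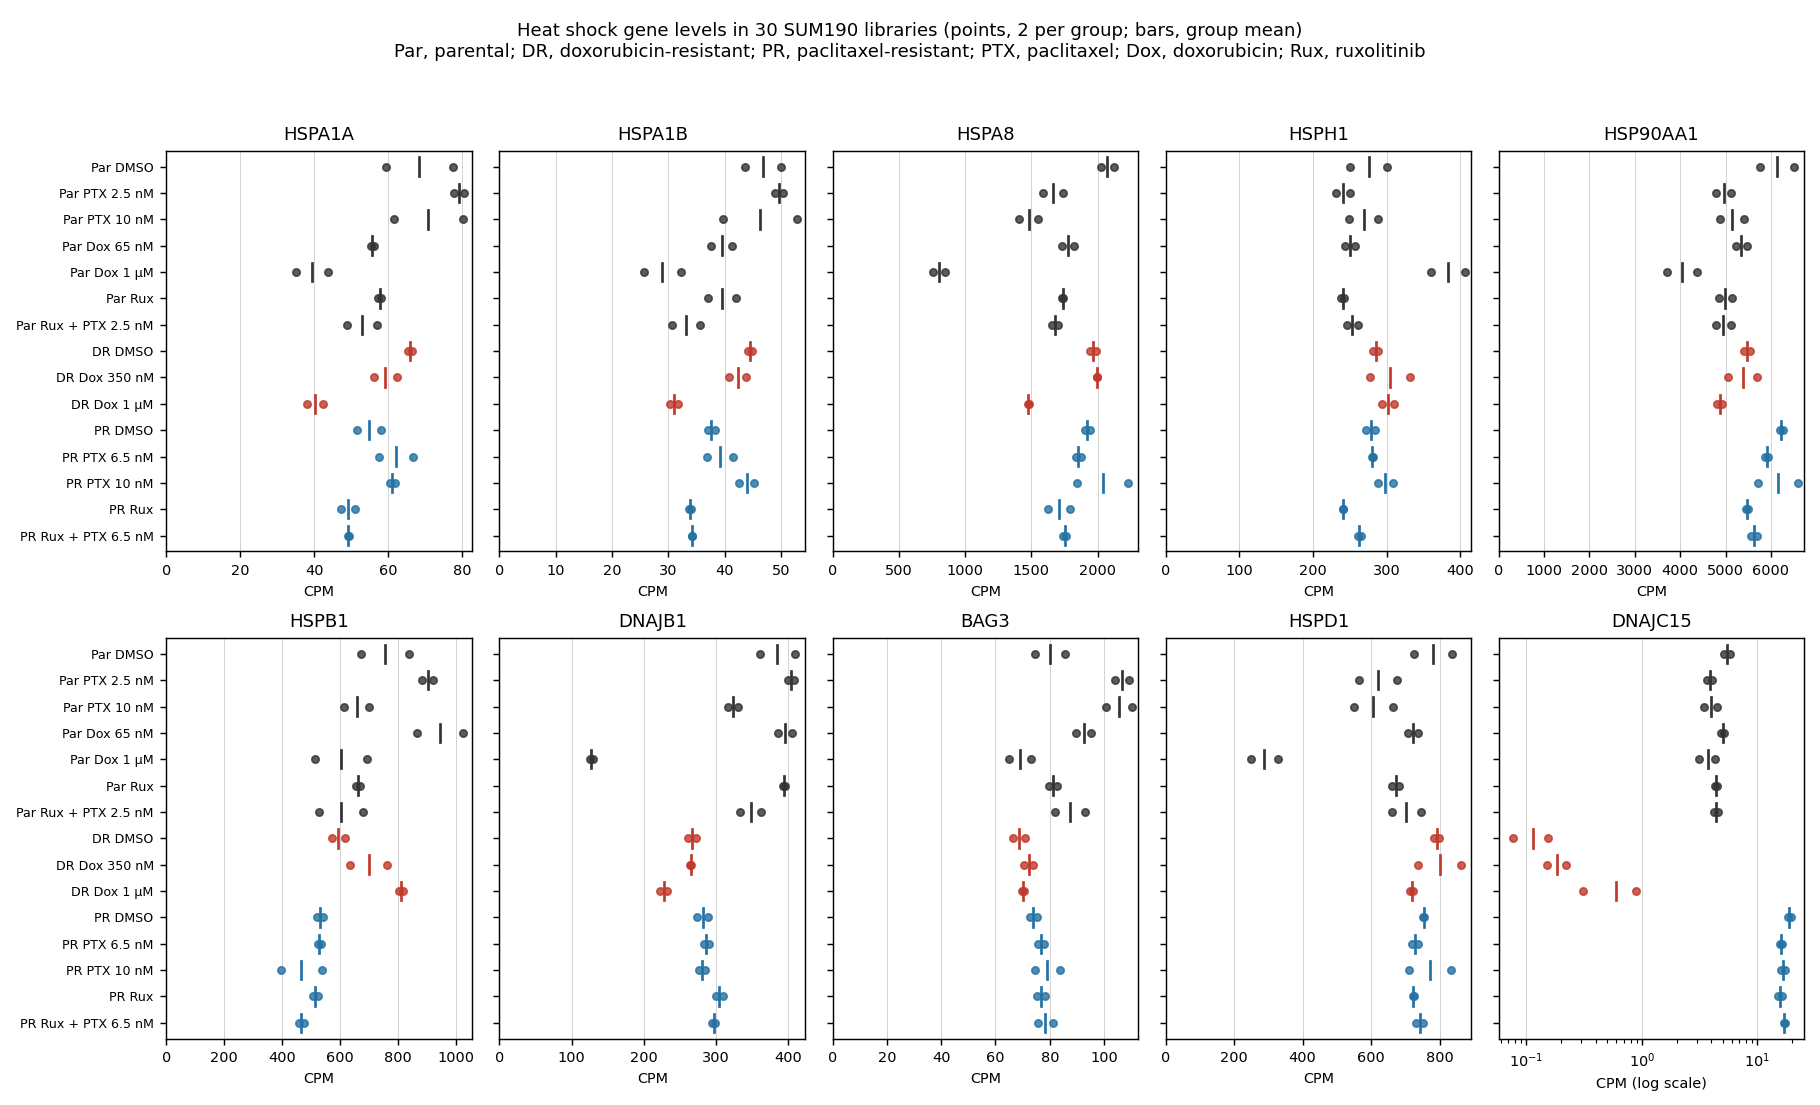
Level of each gene in CPM (horizontal axis, logarithmic for DNAJC15 only) in the 15 groups (vertical axis); points are the 2 libraries of a group and vertical bars the group mean. Parental cells on 1 µM doxorubicin are lowest for HSPA1A, HSPA1B, HSPA8, HSP90AA1, DNAJB1 and HSPD1 and highest for HSPH1, and DNAJC15 separates the 3 cell lines.

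Reads in genes numbered 18443749 to 32669995 per library, so that 3 reads, the limit that a count of 0 allows, correspond to 0.0947 to 0.163 CPM for counting error alone. The difference between the 2 libraries of a group followed transcript GC content across genes in several groups: Spearman rho was 0.80 in parental DMSO cells, -0.73 on 1 µM doxorubicin, -0.67 on 10 nM paclitaxel, 0.68 on ruxolitinib with paclitaxel and 0.57 on 65 nM doxorubicin in parental cells, and -0.69 on 350 nM doxorubicin in doxorubicin-resistant cells. The epithelial markers summed to 2325 to 4191 CPM in every library. Markers of fibroblasts summed to 5.004 to 12.5 CPM, of endothelium to 2.25 to 8.87 CPM and of immune cells to 7.30 to 38.9 CPM. In these bulk samples, fewer cells of a kind and less RNA per cell cannot be told apart.

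In the absence of drug, both J-domain genes were called in each resistant line against parental cells. DNAJB1, the cytosolic partner of HSP70, fell in both, and DNAJC15 fell in doxorubicin-resistant and rose in paclitaxel-resistant cells. DNAJB1 stood at 361 and 410 CPM in parental, 273 and 261 in doxorubicin-resistant and 274 and 289 in paclitaxel-resistant DMSO libraries. Neither resistant line overlapped the parental libraries. The same held for 56.5% of all genes in doxorubicin-resistant and 61.7% in paclitaxel-resistant cells. The log2 difference was -0.52 ± 0.07 (SE; adjusted p = 2.1e-06) in doxorubicin-resistant and -0.45 ± 0.07 (adjusted p = 1.5e-05) in paclitaxel-resistant cells. These are tests with limma, adjusted over all 12743 genes, and a gene was called at an adjusted p under 0.05.

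Among the HSP70 genes, HSPA8 stood at 2121 and 2027 CPM in parental, 1987 and 1944 in doxorubicin-resistant and 1903 and 1943 in paclitaxel-resistant cells, with log2 differences of -0.08 and -0.11 that were not called. HSPA1A and HSPA1B differed by log2 -0.04 and -0.07 in doxorubicin-resistant cells, not called. In paclitaxel-resistant cells HSPA1B fell from 43.6 and 49.99 to 36.9 and 38.3 CPM (log2 -0.31 ± 0.12, adjusted p = 0.045). Its call was lost with the replicate number as a block, without the second parental DMSO library and without either paclitaxel-resistant one. HSPA1A had a like difference there, from 59.3 and 77.5 to 51.5 and 58.1 CPM (log2 -0.31 ± 0.12, adjusted p = 0.064), not called. The small heat shock gene HSPB1 also fell there, from 674 and 837 to 520 and 542 CPM (log2 -0.50 ± 0.14, adjusted p = 0.0086). Its call was lost without the second parental DMSO library or the first paclitaxel-resistant one. HSP90AA1, HSPH1, BAG3 and HSPD1 were called in neither line. In all, 2 of the 10 genes were called in doxorubicin-resistant cells, beside 27.5% of all genes, and 4 of 10 in paclitaxel-resistant cells, beside 32.6%. Without the first parental DMSO library HSPB1 and BAG3 were added in doxorubicin-resistant cells. Once libraries were corrected for transcript GC content and length, 5 were called there, beside 5249 of the 12149 genes with a known GC content. Between the 2 resistant lines DNAJC15 alone was called, beside 34.0% of all genes. After the GC and length correction 6 genes were called, beside 5980 of 12149. The medians of the 10 log2 differences were -0.12, -0.11 and 0.03, beside -0.01, -0.01 and 0.00 over all genes.

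DNAJC15 was the most variable of these genes. It stood at 5.75 and 5.12 CPM in parental DMSO cells (142 and 159 reads), at 0.0762 and 0.154 CPM in doxorubicin-resistant cells (2 and 4 reads), and at 19.4 and 18.4 CPM in paclitaxel-resistant cells (459 and 455 reads). The 3 lines did not overlap in any treatment. All parental libraries lay between 3.14 and 5.75 CPM, all doxorubicin-resistant ones between 0.0762 and 0.883, and all paclitaxel-resistant ones between 15.2 and 19.4. For DMSO libraries alone, 56.5% of all genes did not overlap between doxorubicin-resistant and parental cells. The shares were 61.7% for paclitaxel-resistant against parental cells and 77.0% between the resistant lines. The share over all 30 libraries was not computed. In order, the group means were 18.9 CPM in paclitaxel-resistant cells in DMSO, 17.1 on ruxolitinib with paclitaxel, 16.7 on 10 nM paclitaxel, 16.1 on 6.5 nM paclitaxel and 15.8 on ruxolitinib. Parental means followed, from 5.44 CPM in DMSO through 4.99 on 65 nM doxorubicin, 4.39 on ruxolitinib with paclitaxel, 4.37 on ruxolitinib, 3.96 on 10 nM and 3.86 on 2.5 nM paclitaxel to 3.72 on 1 µM doxorubicin. Doxorubicin-resistant means were 0.596 CPM on 1 µM doxorubicin, 0.186 on 350 nM and 0.115 in DMSO. Of the 14 neighbouring pairs in this order, 9 had overlapping libraries.

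The difference of doxorubicin-resistant from parental DMSO cells was -2.53 ± 0.14 (adjusted p = 2.7e-12) and that of paclitaxel-resistant cells 1.63 ± 0.14 (adjusted p = 2.7e-09), both on the log2(CPM + 1) scale, which understates changes at such low levels. Between the resistant lines it was -4.16 ± 0.14 (adjusted p = 8.1e-17). With an offset of 0.25 CPM the first and the last became -3.97 and -5.72, and with voom on recovered reads -5.40 and -7.20. From pooled reads, parental cells had 47.0 times the level of doxorubicin-resistant cells (exact 95% counting interval 21.4 to 129). Paclitaxel-resistant cells had 3.49 times the parental level (3.06 to 3.99).

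The 10 tested genes nearest to DNAJC15 in the RefSeq gene order, 5 on each side, did not share this pattern. ENOX1, the next gene on 1 side, was called lower in both resistant lines, at log2 -0.55 (adjusted p = 0.010) and -0.54 (adjusted p = 0.011), and so was TSC22D1 in doxorubicin-resistant cells at -0.21 (adjusted p = 0.016). VWA8 was called higher in paclitaxel-resistant cells at 0.28 (adjusted p = 0.016). CCDC122, for example, stood at 5.55 CPM in parental, 5.63 in doxorubicin-resistant and 6.34 in paclitaxel-resistant cells. EPSTI1 and RGCC were near or under 1 CPM in all 3 lines.

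**Figure D2:**
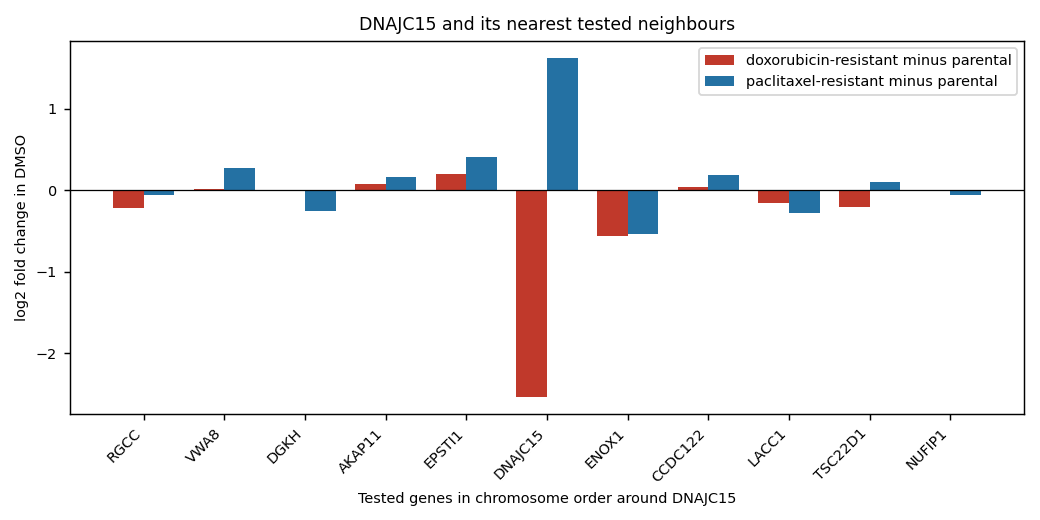
Log2 fold change in DMSO (vertical axis) of DNAJC15 and its 10 nearest tested neighbours in chromosome order (horizontal axis) for doxorubicin-resistant (red) and paclitaxel-resistant (blue) cells against parental cells. DNAJC15 is at -2.53 and 1.63, whereas every neighbour lies between -0.55 and 0.41.

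Its partners at the inner membrane, a list of 8 tested genes of the import motor and the TIM23 channel, held 1 gene called higher and 2 lower in doxorubicin-resistant cells, beside 12.3% of all genes higher and 15.2% lower. In paclitaxel-resistant cells it held 1 and 1, beside 16.3% of all genes in each direction. TIMM17B, a channel subunit, rose in both (log2 0.57 and 0.51) and TIMM44, which tethers mitochondrial HSP70 to the channel, fell in both (-0.41 and -0.42). HSPD1 stood at 835 and 726 CPM in parental, 799 and 785 in doxorubicin-resistant and 753 and 756 in paclitaxel-resistant cells and was called in neither. Of the other chaperone lists, HSP90 and its co-chaperones had 5 of 12 genes lower in doxorubicin-resistant cells, and 3 lower with 2 higher in paclitaxel-resistant cells, beside the same shares. HSPB8, a small heat shock protein that works with BAG3 in selective autophagy, rose by log2 1.12 ± 0.09 (adjusted p = 1.6e-09) and 1.99 ± 0.09 (adjusted p = 6.6e-14).

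One micromolar doxorubicin moved all 10 genes in parental cells, 9 down and 1 up, beside 75.8% of all genes called and 41.5% called lower. The median log2 difference of the 10 was -0.64, beside -0.07 over all genes. The largest falls were in DNAJB1, HSPD1 and HSPA8, and the single rise was in HSPH1. Scaling by the median of ratios moved this comparison by 0.10 on the log2 scale, and with it the calls of HSPB1 and BAG3 were lost.

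DNAJB1 fell from 361 and 410 CPM to 129 and 125 CPM (log2 -1.59 ± 0.07, adjusted p = 1.1e-15). This was its lowest level in any group. HSPA8 fell from 2121 and 2027 to 756 and 849 CPM (log2 -1.37 ± 0.08, adjusted p = 2.2e-13). The inducible HSP70 genes fell less: HSPA1A went from 59.3 and 77.5 to 43.8 and 35.001 CPM (log2 -0.78 ± 0.12, adjusted p = 5.7e-06). HSPA1B went from 43.6 and 49.99 to 32.1 and 25.6 CPM (log2 -0.68 ± 0.12, adjusted p = 1.1e-05). For each of these genes the treated libraries lay below both controls; groups did not overlap for 79.3% of all genes.

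HSPH1, the HSP110 exchange factor, rose from 300.5 and 251 to 360 and 406 CPM (log2 0.48 ± 0.09, adjusted p = 6e-05), without overlap. BAG3, the other exchange factor, fell from 74.7 and 85.7 to 73.0 and 65.0 CPM (log2 -0.21 ± 0.08, adjusted p = 0.026). HSP90AA1 fell from 6503 and 5759 to 3713 and 4369 CPM (log2 -0.60 ± 0.08, adjusted p = 6.5e-07). HSPB1 was at 674 and 837 and then 693 and 515 CPM, and these libraries overlapped although the fitted fall passed the test (log2 -0.33 ± 0.14, adjusted p = 0.039). Both the BAG3 and the HSPB1 call were also lost without the second library of either group.

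In mitochondria, HSPD1 fell from 835 and 726 to 249 and 328 CPM (log2 -1.44 ± 0.11, adjusted p = 5.8e-11). Its partner lid HSPE1 fell by log2 0.61 ± 0.17 (adjusted p = 0.0026), and HSPA9, the mitochondrial HSP70, had a difference of 0.03 (adjusted p = 0.62). DNAJC15 fell from 5.75 and 5.12 to 4.29 and 3.14 CPM (log2 -0.46 ± 0.14, adjusted p = 0.005), a call lost without the second treated library. Of 14 mitochondrial chaperones and proteases 8 were lower and 3 higher, led by TRAP1, the mitochondrial HSP90 (log2 -1.59). In the import motor list 4 of 8 were lower and 2 higher, among them PAM16, a J-like inhibitor of the motor (log2 1.24). Over all genes 41.5% were called lower and 34.3% higher.

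Genes of the other chaperone lists were called both ways, beside 34.3% of all genes higher and 41.5% lower. HSP90 and its co-chaperones had 7 of 12 lower and 2 higher, led by FKBP5 at log2 -1.603. Of the 16 ER chaperones 11 were lower and 1 higher, with PDIA4 at -2.02 and DNAJB9, the higher one, at 1.42. Of 8 other HSP70 and HSP110 genes 4 were lower and 4 higher, and HSPA4L, an HSP110 relative of HSPH1, fell by log2 1.52. Of 10 other cytosolic J-domain genes 6 rose and 3 fell, with DNAJB4, a close relative of DNAJB1, at log2 1.52. The chaperonin TRiC had 4 of 8 lower and 1 higher. In the list of nucleotide exchange and quality control genes 5 of 10 rose and 2 fell, with UBB (ubiquitin) at 1.503 and SQSTM1 (the autophagy receptor p62) at 1.27. HSPB8 rose by log2 3.43 ± 0.09 (adjusted p = 4.4e-19). HSF1 was not called (log2 0.15, adjusted p = 0.20), whereas HSF2 (1.22) and the HSF1 inhibitor HSBP1 (1.36) rose and HSF4 fell by 0.82. Endothelial markers summed to 2.83 and 3.58 CPM in the controls and 8.87 and 8.60 CPM in the treated libraries, and immune markers to 18.0 and 19.1 and to 28.3 and 25.7 CPM, mostly the lysosomal gene CD68. Their part in these changes was not tested.

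The same concentration moved fewer of the genes in doxorubicin-resistant cells, 4 down and 2 up, beside 39.1% of all genes called and 19.9% called lower. The median log2 difference of the 10 was -0.15, beside 0.00 over all genes. HSPA1A fell from 66.5 and 65.4 to 42.4 and 38.2 CPM (log2 -0.70 ± 0.12, adjusted p = 0.00011), and HSPA1B from 44.8 and 44.0 to 30.3 and 31.8 CPM (log2 -0.50 ± 0.12, adjusted p = 0.0013). HSPA8 fell from 1987 and 1944 to 1480 and 1478 CPM (log2 -0.41 ± 0.08, adjusted p = 0.00025). DNAJB1 fell from 273 and 261 to 222 and 233 CPM (log2 -0.23 ± 0.07, adjusted p = 0.0092). The treated libraries lay below the controls for each of these, and 79.7% of all genes did not overlap.

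HSPB1 rose from 616 and 573 to 806 and 819 CPM (log2 0.45 ± 0.14, adjusted p = 0.014). DNAJC15 rose from 2 and 4 reads to 28 and 8 reads (log2 0.49 ± 0.14 on the log2(CPM + 1) scale, adjusted p = 0.007), which is 5.45 times by pooled reads (2.27 to 15.8) and still far below the parental level. Without the treated library with 28 reads its adjusted p was 0.25. The call was also lost without the first DMSO library, and an offset of 0.25 CPM gave 1.13 and voom 2.14. The HSPB1 and DNAJB1 calls were lost when single libraries were left out: for HSPB1 either treated library or the second DMSO library, for DNAJB1 the first library of either group. HSPD1 stood at 799 and 785 and then 723 and 715 CPM and was not called (log2 -0.14, adjusted p = 0.35), nor were HSPH1, HSP90AA1 and BAG3. ER chaperones were lower in 14 of 16 and higher in 1, beside 19.9% of all genes lower and 19.1% higher. Endothelial markers summed to 2.25 and 2.38 CPM in DMSO and 5.36 and 5.33 CPM on doxorubicin, and their part was not tested.

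The difference between the 2 lines in this response was tested directly and was called for 7 of the 10 genes, 6 higher and 1 lower in resistant cells, beside 58.3% of all genes called and 33.2% called higher. The medians were 0.61 for the 10 genes and 0.08 for all genes. The largest were DNAJB1 at 1.36 ± 0.10 (adjusted p = 9.2e-11) and HSPD1 at 1.30 ± 0.16 (adjusted p = 3.8e-07). HSPA8 differed by 0.96 ± 0.11 (adjusted p = 1.6e-07), DNAJC15 by 0.95 ± 0.20 (adjusted p = 0.00025), HSPB1 by 0.78 ± 0.20 (adjusted p = 0.002) and HSP90AA1 by 0.44 ± 0.12 (adjusted p = 0.003). The DNAJC15 value was 1.67 with an offset of 0.25 CPM and 2.71 with voom. HSPH1 differed by -0.40 ± 0.13 (adjusted p = 0.012), a call lost without the second library of either parental group. The inducible HSPA1A and HSPA1B fell in both lines, with differences of 0.08 ± 0.18 and 0.18 ± 0.16 that were not called (adjusted p = 0.72 and 0.35). HSPB8 had a difference of -2.49 and TRAP1 of 1.45.

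**Figure D3:**
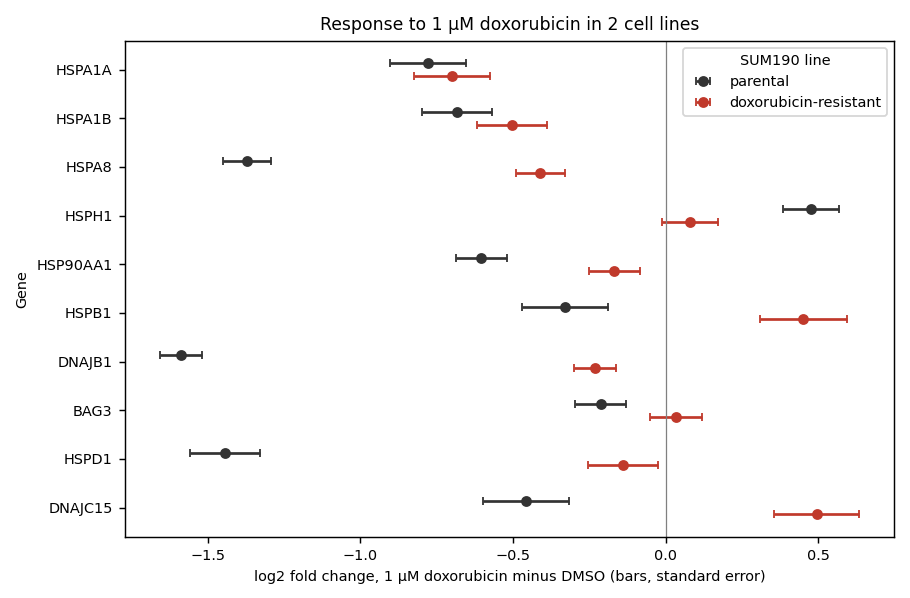
Log2 fold change on 1 µM doxorubicin against DMSO (horizontal axis) for the 10 genes (vertical axis) in parental (black) and doxorubicin-resistant (red) cells; points are fitted differences and bars their standard errors. HSPA8, DNAJB1 and HSPD1 lie between -1.59 and -1.37 in parental cells and between -0.41 and -0.14 in resistant cells, while HSPA1A and HSPA1B lie close together.

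The lower concentrations of doxorubicin gave no call by limma. With 65 nM in parental cells 0 of 10 genes were called, beside 11.2% of all genes. Here and below, shares of all genes refer to an adjusted p under 0.05, and none was computed for an unadjusted p. At 65 nM, 6 of the 10 had an unadjusted p under 0.05, and voom on recovered reads called 0. HSPB1 stood at 868 and 1025 CPM there, against 674 and 837 in DMSO (log2 0.33, adjusted p = 0.14). Without the second parental DMSO library HSP90AA1, HSPB1 and BAG3 were called. After the GC and length correction 5 genes were, beside 2878 of the 12149 genes in that fit. With 350 nM in resistant cells 0 of 10 were called by limma or voom and 0 had an unadjusted p under 0.05, beside 3.81% of all genes. DNAJB1 stood at 266 and 264 CPM there and HSPA8 at 2000 and 1999 CPM.

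Paclitaxel at 10 nM lowered 5 of the 10 genes in parental cells and raised BAG3, beside 48.2% of all genes called and 28.1% called lower. HSPA8 fell from 2121 and 2027 to 1406 and 1553 CPM (log2 -0.49 ± 0.08, adjusted p = 2.6e-05). BAG3 rose from 74.7 and 85.7 to 110.3 and 100.6 CPM (log2 0.39 ± 0.08, adjusted p = 0.00057). The treated libraries did not overlap the controls for either gene, nor for HSP90AA1, DNAJB1, HSPD1 and DNAJC15, which were lower. The same held for 63.3% of all genes. HSPD1 fell from 835 and 726 to 549 and 663 CPM (log2 -0.37 ± 0.11, adjusted p = 0.011). DNAJB1 fell by log2 0.25, HSP90AA1 by 0.25 and DNAJC15 by 0.38 (adjusted p = 0.0048, 0.016 and 0.028). HSPA1A stood at 80.2 and 61.5 CPM, across the range of its controls. The calls of HSP90AA1, HSPD1 and DNAJC15 were lost without the first library of either group, and that of DNAJB1 without the second DMSO library. In a fit of the parental libraries alone, HSP90AA1 and DNAJC15 were not called. The DNAJC15 call was also lost with an offset of 0.25 CPM and with the GC and length correction. The median log2 difference was -0.22, beside -0.04 over all genes.

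Among the other lists, ER chaperones were lower in 15 of 16 genes, led by HSP90B1 at log2 -1.02, and TRiC in 5 of 8, beside the 28.1% of all genes called lower. HSP90 and its co-chaperones had 6 of 12 lower. HSPB8, the partner of BAG3, rose by log2 1.65 ± 0.09 (adjusted p = 2.6e-12), and SQSTM1 by 1.20. Immune markers summed to 38.9 and 35.1 CPM here against 18.0 and 19.1 in DMSO, and their part was not tested.

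At 2.5 nM paclitaxel 4 genes fell and BAG3 rose, beside 26.8% of all genes called and 17.1% called lower. BAG3 reached 104.2 and 109.2 CPM (log2 0.41 ± 0.08, adjusted p = 0.0021). HSPA8 fell to 1736 and 1591 CPM (log2 -0.32 ± 0.08, adjusted p = 0.0068). HSP90AA1 (-0.30), HSPD1 (-0.33) and DNAJC15 (-0.41) had adjusted p = 0.011, 0.034 and 0.035. These calls depended on the parental DMSO pair. None of them remained without its first library, and more of the 10 genes were called without its second. Calls over all genes went the same way, fewer without the first and more without the second. Without the second paclitaxel library BAG3 alone was called. With the GC and length correction BAG3 stood at 0.25, HSP90AA1 at -0.20 and HSPD1 at -0.19, all called, and DNAJC15 at -0.20, not called (adjusted p = 0.34). The DNAJC15 call was also lost with an offset of 0.25 CPM, with no filter, with voom and without the first paclitaxel library, and that of HSPD1 with no filter and with median-of-ratios scaling. Immune markers summed to 25.9 and 28.6 CPM here, and their part was not tested. The medians were -0.06 for the 10 genes and -0.01 for all genes.

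Paclitaxel-resistant cells had no call in limma at either concentration. At 6.5 nM 0 of 10 were called, with 0 at an unadjusted p under 0.05 and 0 by voom, beside 0.0942% of all genes. At 10 nM the same 3 counts were 0, beside 13.6% of all genes. After the GC and length correction 2 genes were called, beside 3540 of the 12149 genes in that fit. HSPA8 stood at 2233 and 1848 CPM on 10 nM, against 1903 and 1943 in DMSO, and BAG3 at 74.4 and 83.6 against 72.6 and 75.3. The difference between lines in the response to 10 nM was called for HSPA8 alone of the 10, at 0.57 ± 0.11 (adjusted p = 0.0022), beside 10.8% of all genes. For BAG3 it was -0.30 ± 0.12 (adjusted p = 0.11). Without the first parental DMSO library DNAJB1 was added and without the second BAG3. After the GC and length correction 5 genes were called, beside 3441 of 12149.

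Ruxolitinib alone lowered 2 genes in parental cells, beside 13.2% of all genes called. HSPA8 fell to 1738 and 1733 CPM (log2 -0.26 ± 0.08, adjusted p = 0.033) and HSP90AA1 from 6503 and 5759 to 5132 and 4853 CPM (log2 -0.29 ± 0.08, adjusted p = 0.021). Both calls were lost without either ruxolitinib library, that of HSP90AA1 also without the first DMSO library and that of HSPA8 without either. After the GC and length correction 7 genes were called, beside 3522 of the 12149 genes in that fit. Immune markers summed to 11.6 and 10.7 CPM on ruxolitinib against 18.0 and 19.1 in DMSO, and their part was not tested. HSF1 fell by log2 0.34 (adjusted p = 0.027) and HSP90AB1, the constitutive HSP90, by 0.29 (adjusted p = 0.0031). Of 4 heat shock factors 1 was called lower and 0 higher, and of 12 genes of HSP90 and its co-chaperones 1 lower and 0 higher. Over all genes 7.71% were called lower. In paclitaxel-resistant cells 0 of 10 were called by limma, beside 6.92% of all genes, and 0 by voom. At an unadjusted p under 0.05 there were 3 (HSPA8, HSPH1 and HSP90AA1). After the GC and length correction 4 were called, beside 2043 of 12149 genes. Between the lines 0 of 10 differed by either tool, with 0 at an unadjusted p under 0.05, beside 0.408% of all genes.

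Ruxolitinib added to 2.5 nM paclitaxel lowered 5 genes against paclitaxel alone in parental cells, beside 27.9% of all genes called and 12.9% called lower. HSPA1A went from 77.9 and 80.5 to 48.8 and 57.1 CPM (log2 -0.58 ± 0.12, adjusted p = 0.0022) and HSPA1B from 48.8 and 50.3 to 30.7 and 35.6 CPM (log2 -0.57 ± 0.12, adjusted p = 0.0013). HSPB1 fell from 923 and 884 to 527 and 679 CPM (log2 -0.59 ± 0.14, adjusted p = 0.0043). These 3 genes did not overlap between the groups, nor did 66.0% of all genes. BAG3 fell from 104.2 and 109.2 to 82.1 and 93.0 CPM (log2 -0.28 ± 0.08, adjusted p = 0.016) and DNAJB1 by log2 0.22 ± 0.07 (adjusted p = 0.022). HSPA8, HSP90AA1, HSPH1, HSPD1 and DNAJC15 were not called. HSF1 fell by log2 0.56 (adjusted p = 0.00058) and HSPA6, a strictly inducible HSP70, by 0.99. Their lists did not fall as a whole. Of 8 other HSP70 and HSP110 genes 4 were called higher and 1 lower, and of 4 heat shock factors 1 higher and 1 lower. Over all genes 15.1% were called higher and 12.9% lower. Without the first library of the combination only the HSPA1B call remained, and without the second paclitaxel library those of BAG3 and DNAJB1 were lost, the latter also without the first. With the GC and length correction the BAG3 call was lost (log2 -0.13, adjusted p = 0.087), and HSPA1A and HSPB1 stood at -0.38 and -0.33, still called. Immune markers summed to 25.9 and 28.6 CPM on paclitaxel and 13.5 and 13.8 CPM on the combination, and their part was not tested.

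In paclitaxel-resistant cells the same addition to 6.5 nM paclitaxel gave 0 of 10 called by limma and 0 by voom, with HSPA1A alone at an unadjusted p under 0.05, beside 3.28% of all genes. HSPA1A stood at 57.6 and 66.9 CPM on paclitaxel and 49.4 and 49.1 with ruxolitinib (log2 -0.33 ± 0.12, adjusted p = 0.20). The concentrations of paclitaxel differ between the lines, so the responses were not set against each other.

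**Figure D4:**
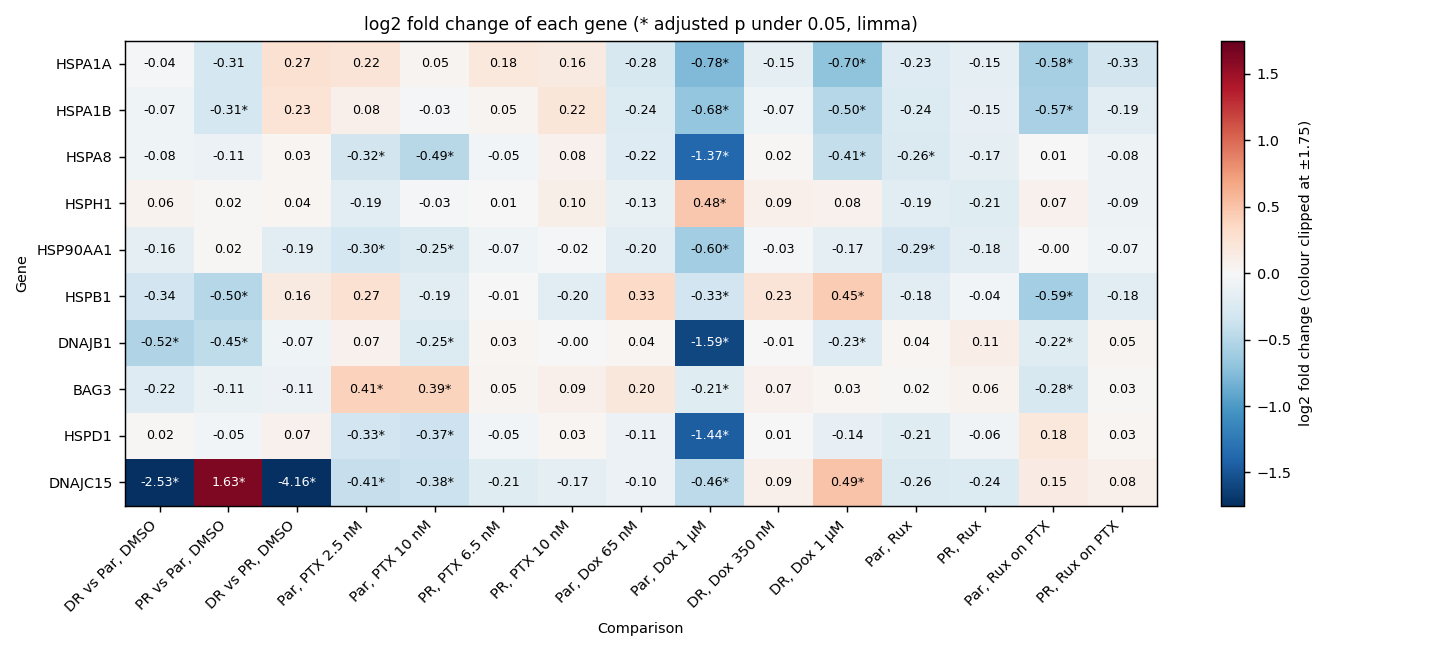
Log2 fold change (colour and printed value) of the 10 genes (rows) in 15 comparisons (columns), with an asterisk at an adjusted p under 0.05. Parental cells on 1 µM doxorubicin have 10 calls, the 4 treatments of paclitaxel-resistant cells have 0, and the DNAJC15 values of -2.53 and -4.16 lie beyond the colour range.

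Across the 15 group means the genes moved in several ways. These correlations are descriptions over groups that share cell lines and depth, and parental cells on 1 µM doxorubicin stand at an end of the range for most genes. HSPA8 and HSPD1 had a Pearson r of 0.96 and so had HSPA1A and HSPA1B, whose reads could be split. HSPA8 and HSP90AA1 had 0.86, and HSPH1 and DNAJB1 had -0.91. BAG3 was near 0 with HSPA8 (0.08) and HSPD1 (0.03). DNAJC15 and HSPA1A had -0.02. Among all tested genes, the group means most like those of DNAJB1 belonged to SMARCA4 (0.99), those like HSPA8 to DCTD (0.98), those like HSPD1 to XPO7 (0.98), those like HSPH1 to ZNF124 (0.96), those like BAG3 to PLEKHM1 (0.96), those like HSPB1 to MISP (0.96) and those like HSP90AA1 to ZNF354C (0.94). MED16 (0.96) followed HSPA1B as most like HSPA1A.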

How the data were processed

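The authors deposited 1 table of log2 values per gene symbol and library, log2(CPM + 1) with CPM scaled by TMM. Per the submitters' processing notes, STAR 2.5.1b, edgeR and GRCh37 (hg19) were used; which counter and annotation made the table is not given in the sources used here. After undoing the log, 100% of values were whole multiples of a step per library (tolerance 0.01), which recovered the reads. Differences were tested with limma 3.58.1 (R 4.3.3) on the deposited log2 values of genes that reached 1 CPM in 2 or more libraries, in a model of 15 groups with 15 residual degrees of freedom, trend and robust variances, two-sided, Benjamini-Hochberg adjusted over 12743 genes in each of 18 comparisons. Many comparisons share a DMSO group and so depend on each other. The fit was also run on simulated data of 12743 genes for the doxorubicin-resistant line against parental cells. There it called 52 of 67 genes with a 1.5-fold change, 64 of 67 with a 2-fold change and 10 unchanged genes. The simulated noise was independent between genes, unlike the differences between real libraries that followed GC content. These counts therefore do not give the power or the false calls in the real data.

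All 10 genes are named. At most 4 genes per list and comparison are named, those called with the largest change; others (HSF1, HSPE1, HSPA9, HSP90AB1, HSPA6 and the neighbours of DNAJC15) were chosen for their role or place, some after their values were seen. Of 98 genes in the 10 lists of other chaperones, 92 passed the filter. Genes, lists and tests were chosen with earlier results of these data known. The alternatives were a pseudocount of 0.25, no filter, median-of-ratios scaling, a replicate block, a correction for GC content and length of GENCODE transcripts (found for 95.3% of tested genes), both together, a fit of the compared lines alone, voom and leaving out each library. Python 3.11.15 and pandas 2.3.3 handled the tables.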

Additional observations from a re-analysis of the deposited data

Results flagged for a closer look

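The following results were set apart because the response to the same drug concentration differed between a resistant line and parental cells by a direct test in limma. On 1 µM doxorubicin the log2 response of doxorubicin-resistant minus parental cells was 0.96 for HSPA8, 0.44 for HSP90AA1, 0.78 for HSPB1, 1.36 for DNAJB1, 1.30 for HSPD1, 0.95 for DNAJC15 and -0.40 for HSPH1. On 10 nM paclitaxel that of paclitaxel-resistant minus parental cells was 0.57 for HSPA8. For HSPB1 and DNAJC15 the fitted changes of the 2 lines had opposite signs. The rise of DNAJC15 in resistant cells rests on 36 reads against 6. The parental HSPB1 libraries overlapped between the groups, and the HSPB1 call of each line was lost without single libraries.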

How the results depend on the processing

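Of 180 results of single genes, 49 were called, 25 of these under every alternative, and 90 were called under no setting; signs were not compared for these. Among the other 90, 1 result changed sign with a call on either side: HSPH1 on ruxolitinib with paclitaxel in parental cells, at -0.116 with the GC and length correction alone and with the replicate block and that correction. HSPH1 and HSPB1 on 2.5 nM paclitaxel in parental cells (with that correction) and HSPB1 on 10 nM in paclitaxel-resistant cells (without 1 library) changed sign with no call on either side. The labels do not say whether same-numbered libraries of different groups belong together. Same-numbered deviations correlated between groups from -0.689 to 0.650, and values of both signs do not settle this. With the replicate block the doxorubicin-resistant against parental comparison kept 2 calls, and the block alone ended only the HSPA1B call of paclitaxel-resistant cells. A crossed pairing, chosen after seeing the data, gave 2 calls there, 6 for 10 nM paclitaxel and 10 for 1 µM doxorubicin in parental cells. The GC and length correction, with the replicate block in parentheses, gave these counts of the 10 genes: 5 (5) for doxorubicin-resistant and 6 (5) for the resistant lines against each other, 5 (5) for 65 nM doxorubicin, 7 (7) for ruxolitinib in parental cells, 1 (1) for 350 nM doxorubicin, and in paclitaxel-resistant cells 2 (2) for 10 nM paclitaxel, 4 (4) for ruxolitinib and 1 (1) for ruxolitinib on paclitaxel; the line difference on 10 nM paclitaxel had 5 (5). A fit of the compared lines alone gave 4 for the resistant lines against each other, 2 for 2.5 nM paclitaxel, 0 for ruxolitinib and 3 for ruxolitinib on paclitaxel in parental cells, and 1, 2 and 1 for 10 nM paclitaxel, ruxolitinib and ruxolitinib on paclitaxel in paclitaxel-resistant cells. Over all genes that fit called 5524, 1000, 775 and 1428 in this order, against 4338, 3414, 1685 and 3561 in the main fit. In paclitaxel-resistant cells it called 3745, 2102 and 1047, against 1735, 882 and 418. No filter gave 3 for 2.5 nM paclitaxel, with 3000 calls over all genes. With the GC and length correction 12149 genes were tested, and calls over all genes rose too. They went from 3505 to 5249 for doxorubicin-resistant cells and from 4338 to 5980 between the resistant lines. For 65 nM doxorubicin they went from 1421 to 2878, for parental ruxolitinib from 1685 to 3522, and for 350 nM doxorubicin from 486 to 1791. In paclitaxel-resistant cells the corrected counts were 3540, 2043 and 1349 in the order above, and 3441 for the line difference. The cause was not tested. Leaving out 1 library gave 2 to 4 calls for doxorubicin-resistant and 2 to 5 for paclitaxel-resistant against parental cells; in parental cells 0 to 8 for 2.5 nM and 3 to 6 for 10 nM paclitaxel, 0 to 3 for 65 nM and 7 to 10 for 1 µM doxorubicin, 0 to 2 for ruxolitinib and 1 to 5 for ruxolitinib on paclitaxel; 3 to 5 for 1 µM doxorubicin in resistant cells; and 1 to 2 for the line difference on 10 nM paclitaxel. Calls over all genes also moved when single libraries were left out, so these ranges do not describe the 10 genes alone. A group left with 1 library was assumed to vary like the others. DNAJC15 in doxorubicin-resistant cells rests on 2 to 28 reads per library, which limits its folds.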
